A study of Homo sapiens with 18 samples.

Results

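Follistatin (FST), the ligand gene TGFB1, and the SMAD-response genes SMAD7, ID1, ID2 and ID3 were followed in melanoma cells edited at PCIF1. The 6 genes were chosen by symbol, as a ligand, a ligand trap and transcriptional readouts of the TGF-beta and BMP pathways. Ensembl identifiers of the expression table were matched to symbols, which found 5 of the 6 among 15258 listed genes. All 5 were among the 14512 genes tested, whose mean level was at least 1 TPM (transcripts per 1e+06 transcripts, a length-normalised level). ID2 was not analysed here.

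The cells were MEL624, an established human melanoma line. PCIF1 is the methyltransferase that adds a methyl group to adenosine when this is the first transcribed base after the mRNA cap, giving m6Am. Input mRNA was sequenced from the PCIF1 knockout clones KO1 and KO2 and from a control line, described as wild type with a random sgRNA, 3 biological replicates (A to C) of each. The 9 m6A-immunoprecipitated libraries of the series were not analysed here. Each knockout line is 1 clone and the control is 1 line, so every p-value here reflects how far replicate libraries scatter, not how far separately edited clones would.

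Cells receive TGF-beta and activin ligands through type II and type I receptor kinases that phosphorylate SMAD2 and SMAD3, whereas BMP ligands act through SMAD1, SMAD5 and SMAD9. FST is secreted and binds activins, keeping them from their receptors. SMAD7 is an inhibitory SMAD induced by the same signals, and ID1, ID2 and ID3 are classic BMP target genes whose proteins bind E proteins and keep them off DNA. Many melanomas make TGF-beta and activin themselves.

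PCIF1 mRNA was at 24.0 ± 1.77 TPM in KO1 and 60.3 ± 3.86 TPM in KO2, against 57.6 ± 3.84 TPM in control (SD, n = 3 each). Its log2 fold change was -1.26 in KO1 (limma adjusted p = 1.65e-06) and 0.07 in KO2 (limma adjusted p = 0.542). An edit that ends the protein need not lower its mRNA, so this level does not check the label of KO2. Libraries held 7848089 to 11393206 reads on listed genes. Of 8 melanocyte markers 1 was listed (MITF, at 26.3 TPM in KO1, 50.0 in KO2 and 37.1 in control), whereas all 4 markers of undifferentiated melanoma were, led by AXL at 680.5 TPM in KO1, 662 in KO2 and 709 in control. None of 5 haematopoietic markers was listed, and the endothelial, fibroblast and epithelial lists had 2 of 6, 3 of 6 and 2 of 5 listed. The summed endothelial markers (ESAM and EGFL7) were at 16.0 to 16.9 TPM in KO1 and 15.5 to 17.7 TPM in KO2, against 8.57 to 9.55 TPM in control. Among the other markers NGFR, a neural crest receptor, fell by 1.601 on the log2 scale in KO1 and by 1.81 in KO2 (adjusted p by limma = 0.00606 and 0.00317). SOX9 rose by 0.40 in KO1 and fell by 0.32 in KO2 (adjusted p by limma = 0.0146 and 0.0406). EGFR fell by 0.35 in KO2 (limma adjusted p = 0.00149) and stood at -0.01 in KO1 (limma adjusted p = 0.919). Of the fibroblast genes, LUM was called higher in both clones (adjusted p by limma = 6.98e-05 and 0.000242), at 2.39 TPM in KO1 and 1.146 TPM in KO2, against 0.0665 TPM in control, on 57, 26 and 1 reads. PDGFRB fell by 0.28 in KO1 and 0.36 in KO2 (adjusted p by limma = 0.0193 and 0.00596), and COL1A1 was below 1 TPM in every line; the 3 summed to 12.8 to 13.5 TPM in KO1 and 10.8 to 11.4 TPM in KO2, against 12.9 to 13.1 TPM in control. The epithelial keratin gene KRT18 fell by 0.16 in KO1 and 0.30 in KO2 (adjusted p by limma = 0.00763 and 0.000206), and KRT8 was not called. The part of these markers in the results was not tested. In bulk RNA, fewer cells with a transcript and less of it per cell cannot be told apart.

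The bases around the annotated transcription start are shown because PCIF1 acts on adenosine at that place. Each line gives 30 bases, 5′ to 3′ on the gene's own strand, from RefSeq (GRCh38.p14), with the annotated start base in capitals.
FST (chr5:53480614-53480643, + strand): cgcccggcttctgacGtccattgaatcgcg
TGFB1 (chr19:41353908-41353937, - strand): acccagccggtccccGccgccgccgccctt
SMAD7 (chr18:48950951-48950980, - strand): gcttttttttttttaAttgcctgcttctcc
ID1 (chr20:31605274-31605303, + strand): tggctccgcactctcAttccacgttcttaa
ID3 (chr1:23559487-23559516, - strand): gcggcgagcgtgcgcGcgttgcaggtcact
The annotated start base was A for SMAD7 and ID1 and G for FST, TGFB1 and ID3. Among the RefSeq windows of tested genes, 45.7% had A and 40% had G at the start. For FST and ID1 the start in GENCODE lay 3 and 6 bases upstream, at the same kind of base. An annotated start does not give the bases at which transcripts began in these cells.

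The 250 bases upstream of the RefSeq start are printed for FST, the gene that rose in both clones, and for ID1 and ID3, a pair of related BMP target genes. Capitals mark CAGAC, the core of the SMAD3 and SMAD4 binding element, searched on both strands (GTCTG on the other), and TATAA, the core of a TATA box, searched on the gene's strand.
FST (chr5:53480379-53480628, + strand): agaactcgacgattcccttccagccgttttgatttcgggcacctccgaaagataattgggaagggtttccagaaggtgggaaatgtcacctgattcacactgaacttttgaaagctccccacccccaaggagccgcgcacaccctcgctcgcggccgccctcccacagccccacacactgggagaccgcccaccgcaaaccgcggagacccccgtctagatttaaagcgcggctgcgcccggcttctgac
ID1 (chr20:31605039-31605288, + strand): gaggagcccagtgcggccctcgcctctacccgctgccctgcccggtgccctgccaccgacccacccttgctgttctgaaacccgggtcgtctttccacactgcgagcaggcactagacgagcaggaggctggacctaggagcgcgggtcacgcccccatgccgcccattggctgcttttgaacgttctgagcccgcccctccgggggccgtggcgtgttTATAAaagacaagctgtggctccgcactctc
ID3 (chr1:23559502-23559751, - strand): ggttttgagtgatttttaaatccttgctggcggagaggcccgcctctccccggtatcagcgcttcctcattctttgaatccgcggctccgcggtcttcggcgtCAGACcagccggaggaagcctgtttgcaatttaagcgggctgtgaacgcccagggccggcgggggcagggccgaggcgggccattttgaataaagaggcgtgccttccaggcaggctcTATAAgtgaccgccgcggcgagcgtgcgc
ID1 and ID3 each held 1 TATAA, at -31 in ID1 and at -29 in ID3, counting the base before the start as -1. TATAA was in 7.77% of the windows of tested genes. ID3 held 1 CAGAC, SMAD7 held 2, and FST, TGFB1 and ID1 held 0, while 36.1% of the windows of tested genes held at least 1. The letters GGCGCC, a GC-rich element bound by SMAD1 and SMAD5 (in 24.6% of these windows), and GTCTAGAC, a palindrome of the CAGAC element (in 0.134%), were both searched on each strand and in none of the 5 windows. The matches describe letters and not binding, and a window without them shows nothing about a factor.

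FST, an extracellular inhibitor of activin, was higher in both knockout clones by nearly the same amount. FST (ENSG00000134363, chromosome 5, 53480626 to 53487134, + strand, hg38) was at 411, 427 and 398 TPM in KO1 and at 412, 409.8 and 414 TPM in KO2, against 218, 215 and 219 TPM in control. Every knockout library lay above every control library, and the KO1 values enclosed the KO2 values. The means were 412 ± 14.6 TPM in KO1 and 412 ± 2.30 TPM in KO2, against 217 ± 1.86 TPM in control (SD, n = 3 each). They rested on 1533 to 3683 reads per library, the deepest coverage among the 5 genes.

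FST rose by 0.92 on the log2 scale in KO1 (SE 0.0324, limma adjusted p = 6.12e-08), 1.90-fold, and by 0.92 in KO2 (SE 0.0324, limma adjusted p = 6.41e-08), also 1.90-fold. The difference of KO2 from KO1 was -0.00053 on the log2 scale (95% confidence interval -0.0728 to 0.0718, limma adjusted p = 0.993). The exact two-sided permutation test of the 6 knockout against the 3 control libraries gave p = 0.0238, the smallest it can give; tests of 3 against 3 cannot go below 0.1. Both clones share the control libraries, so the 2 fold changes are not independent. The p of FST ranked 17 in KO1 and 15 in KO2 among the 14512 tested genes, and 1.55% of tested genes were at least as much higher in both clones. FST stood above 98.0% of tested genes in level in KO1 and above 97.9% in KO2, against 95.3% in control.

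TGFB1, which encodes the ligand TGF-beta 1, was lower in KO1 and not called in KO2. TGFB1 (ENSG00000105329, chromosome 19, 41301587 to 41353922, - strand, hg38) was at 17.8, 14.0 and 15.7 TPM in KO1 and at 23.9, 29.7 and 20.7 TPM in KO2, against 28.7, 22.3 and 26.9 TPM in control. All KO1 libraries lay below all KO2 and all control libraries, and KO2 and control overlapped. The means were 15.8 ± 1.92 TPM in KO1 and 24.8 ± 4.60 TPM in KO2, against 26.0 ± 3.32 TPM in control (SD, n = 3 each), from 131 to 302 reads per library. TGFB1 fell by 0.72 on the log2 scale in KO1 (SE 0.145, limma adjusted p = 0.00416). In KO2 it stood at -0.08 (95% confidence interval -0.400 to 0.245, limma adjusted p = 0.726), and KO2 exceeded KO1 by 0.64 (limma adjusted p = 0.00892). Exact permutation tests gave p = 0.1 for KO1 against control and p = 0.8 for KO2 against control.

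TGFB1 shares genomic bases with genes on the opposite strand, HNRNPUL1 (mean 265 TPM), CCDC97 (31.3 TPM), ENSG00000255730 (85.5 TPM) and TMEM91 (1.92 TPM). A long noncoding RNA gene on the same strand as TGFB1, ENSG00000286177, also overlaps it and was not among the listed genes. The library kit was directional, but the strand setting of the read counting was not given in the sources used here, and the level of TGFB1 is therefore uncertain. HNRNPUL1 and CCDC97, its direct neighbours among tested genes, rose in KO1 by 0.29 and 0.51 on the log2 scale (adjusted p by limma = 0.00112 and 0.000528). ENSG00000255730 and TMEM91 fell in KO1, with log2 fold changes of -0.18 and -0.83 (adjusted p by limma = 0.0119 and 0.0179), as TGFB1 did. TGFB1 transcripts have 63.6% GC, above 94.9% of tested genes. Genes within 1 percentage point of that GC content had a median log2 fold change of -0.03 in KO1. TGFB1 stayed lower in KO1 after removal of a GC and length trend from each library, and its log2 fold change lay between -0.79 and -0.57 over all settings run on the 9 libraries.

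SMAD7, the inhibitory SMAD that recruits ubiquitin ligases to the TGF-beta receptor, was the lowest of the 5 in every line. SMAD7 (ENSG00000101665, chromosome 18, 48919853 to 48950965, - strand, hg38) was at 3.06, 3.01 and 3.38 TPM in KO1 and at 2.92, 3.47 and 3.93 TPM in KO2, against 4.53, 3.07 and 3.87 TPM in control. The 3 lines overlapped. Its means were 3.15 ± 0.200 TPM in KO1 and 3.44 ± 0.505 TPM in KO2, against 3.82 ± 0.729 TPM in control (SD, n = 3 each). It stood at -0.26 on the log2 scale in KO1 (95% confidence interval -0.659 to 0.131, limma adjusted p = 0.281) and -0.15 in KO2 (95% confidence interval -0.540 to 0.250, limma adjusted p = 0.581). With 27 to 54 reads per library, a change inside these intervals was not detectable at this depth.

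ID1, an inhibitor of basic helix-loop-helix factors and a direct BMP target, was lower in KO2. ID1 (ENSG00000125968, chromosome 20, 31605283 to 31606515, + strand, hg38) was at 59.0, 49.3 and 46.8 TPM in KO1 and at 29.9, 43.1 and 35.4 TPM in KO2, against 56.5, 50.8 and 61.0 TPM in control. Every KO2 library lay below every library of the other lines, while KO1 and control overlapped. The means were 51.7 ± 6.48 TPM in KO1 and 36.2 ± 6.63 TPM in KO2, against 56.1 ± 5.16 TPM in control (SD, n = 3 each), from 93 to 226 reads per library. Its log2 fold change in KO2 was -0.65 (SE 0.132, limma adjusted p = 0.00443). For KO1 it was -0.12 (95% confidence interval -0.414 to 0.173, limma adjusted p = 0.517). KO2 was below KO1, with a log2 difference of -0.52 (limma adjusted p = 0.0146), a call that ended without KO1 replicate A (-0.42, limma adjusted p = 0.0507). The exact permutation p was 0.1 for KO2 against control and 0.4 for KO1 against control.

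ID3, a close relative of ID1, did not pass the test in any contrast. ID3 (ENSG00000117318, chromosome 1, 23557926 to 23559501, - strand, hg38) was at 39.6, 33.2 and 37.5 TPM in KO1 and at 31.8, 26.3 and 32.1 TPM in KO2, against 30.7, 36.4 and 36.8 TPM in control. The KO2 libraries lay below the KO1 libraries, and control overlapped both clones. Its means were 36.8 ± 3.26 TPM in KO1 and 30.1 ± 3.26 TPM in KO2, against 34.6 ± 3.41 TPM in control (SD, n = 3 each), from 104 to 179 reads per library. The log2 fold change was 0.09 in KO1 (limma adjusted p = 0.549) and -0.20 in KO2 (95% confidence interval -0.433 to 0.0235, limma adjusted p = 0.162). KO2 minus KO1 was -0.29 (95% confidence interval -0.521 to -0.0640, limma adjusted p = 0.0572). It passed the threshold without KO1 replicate B (-0.36, limma adjusted p = 0.0417) and without control replicate A (-0.29, limma adjusted p = 0.0453).

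**Figure D1:**
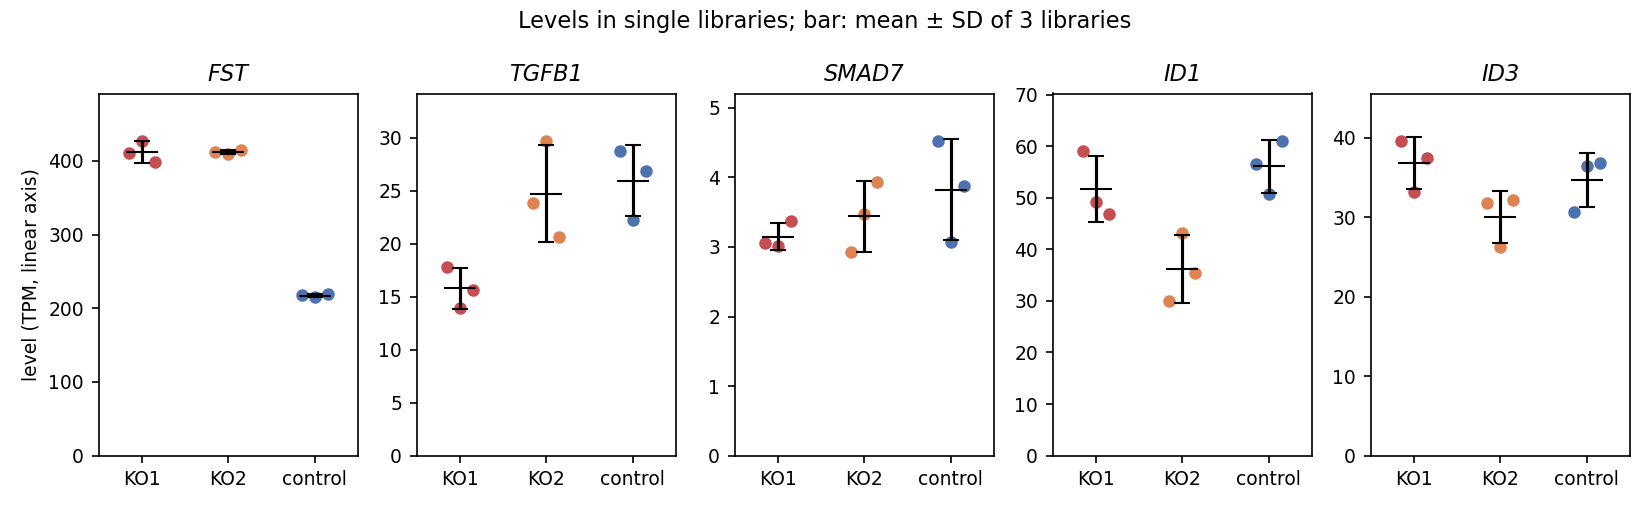
Level of FST, TGFB1, SMAD7, ID1 and ID3 in TPM on linear axes from 0, in KO1, KO2 and control; points are single libraries and bars are the mean ± SD of 3 libraries. FST lies near 412 TPM in both clones and near 217 TPM in control, TGFB1 is lowest in KO1, and ID1 is lowest in KO2.

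In KO1, 2 of the 5 genes passed the test (FST higher, TGFB1 lower), beside 34.3% of all tested genes. In KO2, 2 of the 5 passed (FST higher, ID1 lower), beside 30.4% of all tested genes. Between KO2 and KO1, 2 of the 5 differed (TGFB1 and ID1), beside 28.7%. Libraries of 2 lines did not overlap for 2 of the 5 genes in KO1 against control, for 2 in KO2 against control and for 3 in KO2 against KO1, beside 49.9%, 43.7% and 43% of all tested genes. FST was the only one of the 5 called in the same direction in each clone, beside 8.47% of tested genes called higher in both and 7.26% called lower in both. The mean of both clones against control also called TGFB1 (log2 fold change -0.40, limma adjusted p = 0.0336) and ID1 (-0.38, limma adjusted p = 0.0263), beside 34.4% of tested genes (19.3% higher and 15% lower). Those 2 values average clones that differed from each other, and both calls ended with several single libraries left out, control replicate C among them (limma adjusted p = 0.109 for TGFB1 and 0.110 for ID1).

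**Figure D2:**
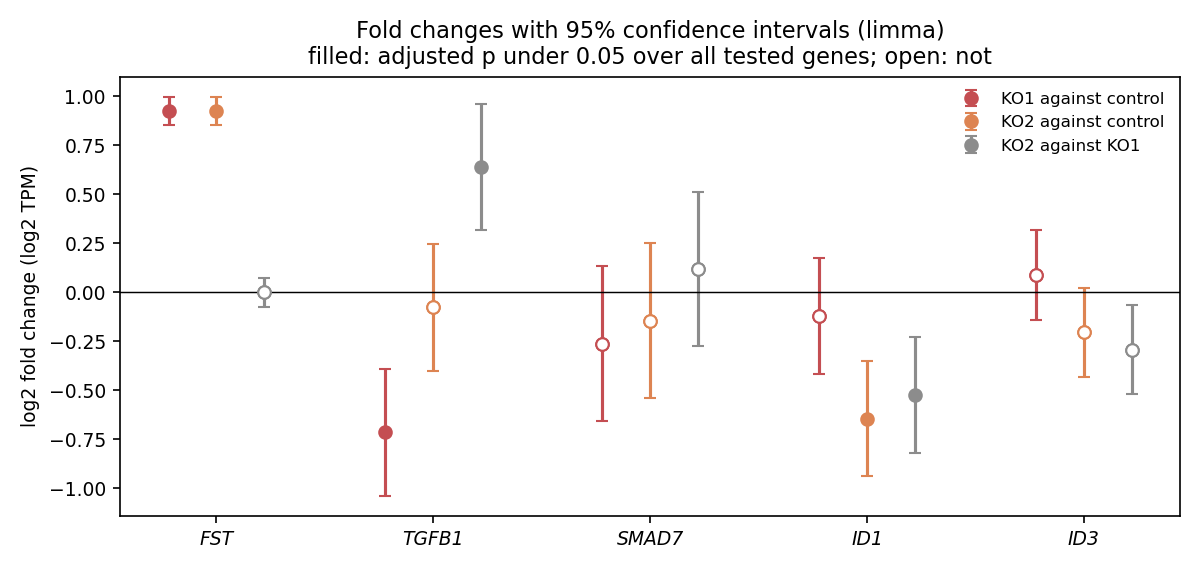
Log2 fold change of each gene with its 95% confidence interval from limma, for KO1 against control, KO2 against control and KO2 against KO1. FST stands at 0.92 in both clones and at 0 between them, while the intervals of TGFB1 in KO1 and of ID1 in KO2 lie below 0.

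Ordered by TPM, which is per length, the 5 genes ran FST, ID1, ID3, TGFB1, SMAD7 from high to low in every line. In KO1 and in control, no 2 neighbours of that order overlapped between libraries. In KO2, ID1 (29.9 to 43.1 TPM) overlapped ID3 (26.3 to 32.1 TPM), and ID3 overlapped TGFB1 (20.7 to 29.7 TPM). The ratio of ID1 to ID3 was 1.41 ± 0.137 in KO1 and 1.23 ± 0.365 in KO2, against 1.63 ± 0.225 in control (SD, n = 3 each).

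The activin side of the pathway was read beside FST, with genes picked after their values were seen. INHBA, the subunit of activin A, was at 17.1 ± 1.45 TPM in KO1 and 20.0 ± 0.812 TPM in KO2, against 21.5 ± 1.22 TPM in control (SD, n = 3 each). It fell by 0.33 on the log2 scale in KO1 (limma adjusted p = 0.00903), and its log2 fold change in KO2 was -0.10 (limma adjusted p = 0.362). The ratio of FST to INHBA was 24.2 ± 1.22 in KO1 and 20.6 ± 0.812 in KO2, against 10.1 ± 0.622 in control (SD, n = 3 each), with no overlap between any lines. FSTL3, a secreted relative of FST that also binds activin, was at 32.5 ± 2.91 TPM in KO1 and 55.6 ± 5.22 TPM in KO2, against 52.8 ± 1.32 TPM in control. It fell by 0.70 on the log2 scale in KO1 (limma adjusted p = 0.00013), and was 0.07 above control in KO2 (limma adjusted p = 0.549). Of the activin type II receptor genes, ACVR2A rose by 0.60 in KO1 (limma adjusted p = 0.0148) and stood at 0.42 in KO2 (limma adjusted p = 0.0702); KO2 minus KO1 was -0.18 (limma adjusted p = 0.426). ACVR2B stood at 0.03 in KO1 (limma adjusted p = 0.827) and rose by 0.56 in KO2 (limma adjusted p = 0.000688), and KO2 exceeded KO1 by 0.53 (limma adjusted p = 0.00128). The type I receptor gene ACVR1B was not called, at -0.03 in KO1 and 0.01 in KO2 (adjusted p by limma = 0.788 and 0.908).

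Around these genes, 8 lists of pathway genes held 110 names besides the 5 genes and ID2, of which 81 were listed and 77 tested. In KO1, 17 of the 77 were higher and 19 lower, 46.8% in all, beside 34.3% of all tested genes (20.2% higher and 14.1% lower). In KO2, 9 were higher and 15 lower, 31.2% in all, beside 30.4% (15.6% higher and 14.8% lower). The median log2 fold change over the 77 genes was 0.02 in KO1 and -0.06 in KO2, beside 0.04 and 0.01 over all tested genes. In KO2 against KO1, 14 were higher and 19 lower, beside 11.8% and 16.9% of all tested genes. Called in both clones, 3 of the 77 genes were higher, 6 lower and 3 opposite. Beside these, 8.47% of all tested genes were called higher in both and 7.26% lower in both. The share called in opposite directions over all tested genes was not computed. Some genes stand in more than 1 list, so the counts of single lists below are not separate. TGIF1 and SKIL count as intracellular inhibitors and as TGF-beta targets, SMAD6 as a SMAD and a BMP target, and BAMBI as an inhibitor and a BMP target.

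Among ligands, 1 of 9 was higher and 4 were lower in KO1, while 2 were higher and 1 lower in KO2. Called ligands made up 55.6% in KO1 and 33.3% in KO2, beside 34.3% and 30.4% of all tested genes. The higher ligand in KO1 was BMP4, named after its values were seen, at 13.7 TPM in KO1 and 6.86 in KO2, against 8.39 in control. It rose by 0.70 on the log2 scale in KO1 (limma adjusted p = 0.00527) and stood at -0.31 in KO2 (limma adjusted p = 0.151). The KO2 counts were 1 higher without control replicate B, and 2 lower without KO2 replicate B or control replicate C. BMP2, a BMP ligand, was at 1.38 ± 0.648 TPM in KO1 and 4.41 ± 1.16 TPM in KO2, against 5.69 ± 0.567 TPM in control (SD, n = 3 each). It fell by 2.13 on the log2 scale in KO1 (limma adjusted p = 0.000558), and its log2 fold change in KO2 was -0.40 (limma adjusted p = 0.356). Of the 10 tested genes nearest to BMP2 on chromosome 20, 7 were lower in KO1 and 8 in KO2, with medians of -0.50 and -0.44. BMP6 fell by 2.0 in KO1 (limma adjusted p = 0.00282), and its 10 neighbours had a median of 0.12. BMP6 was at -0.90 in KO2 (limma adjusted p = 0.0981), which passed the threshold without control replicate C (-1.25, limma adjusted p = 0.0327). GDF15, a stress-induced member of the ligand family, was lower in KO1 (-0.66, limma adjusted p = 0.00212) and higher in KO2 (0.47, limma adjusted p = 0.014). The KO2 call of GDF15 ended without control replicate B (0.36, limma adjusted p = 0.0522).

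Of 14 receptor and coreceptor genes, 4 were higher and 2 lower in KO1, and 3 were higher and 2 lower in KO2. That is 42.9% called in KO1 and 35.7% in KO2, beside 34.3% and 30.4% of all tested genes. ENG, the coreceptor endoglin, was at 154 ± 9.40 TPM in KO1 and 138 ± 11.1 TPM in KO2, against 94.6 ± 5.20 TPM in control (SD, n = 3 each). Its 6 knockout libraries all lay above its control libraries. It rose by 0.70 in KO1 and 0.55 in KO2 on the log2 scale (adjusted p by limma = 5.08e-05 and 0.000214). ENG is also known as an endothelial gene, and the 2 listed endothelial markers were higher in the clones, as given above; their part in this result was not tested. BMPR1B, a BMP type I receptor, and TGFBR3, the coreceptor betaglycan, fell in KO2, with log2 fold changes of -1.29 and -1.17 (limma adjusted p = 0.00795 and 0.00608). In KO1 these were 0.11 and 0.02 (limma adjusted p = 0.801 and 0.96).

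Of 7 tested genes of the SMAD list besides SMAD7, among them ZFYVE9, which is not itself a SMAD, 2 were higher in KO1 and none was called in KO2. The share called in KO1 was 28.6%, beside 34.3% of all tested genes there and 30.4% in KO2. Without control replicate B, 1 was lower in KO1. SMAD6, the inhibitory SMAD of the BMP branch, was at 10.3 ± 1.11 TPM in KO1 and 6.20 ± 0.674 TPM in KO2, against 6.18 ± 0.415 TPM in control (SD, n = 3 each). It rose by 0.73 on the log2 scale in KO1 (limma adjusted p = 0.00124). Its log2 fold change was 0.00 in KO2 (limma adjusted p = 0.99). SMAD3, which carries TGF-beta and activin signals, was called higher in KO1 by 0.16 (limma adjusted p = 0.0355). That call ended without KO1 replicate A (limma adjusted p = 0.121) or C (0.0724), without any one of the control replicates A (0.0502), B (0.101) and C (0.0920), and under 5 other settings, median centring and limma-voom among them.

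Of 9 extracellular antagonists and ligand-storage genes besides FST, 5 were lower and none higher in KO1, and 1 was higher and 2 lower in KO2. Calls covered 55.6% of the list in KO1 and 33.3% in KO2, beside 34.3% and 30.4% of all tested genes. The KO2 counts were 2 higher and 1 lower without KO2 replicate A, and 1 was lower without control replicate C. FST was thus higher in KO1 while FSTL3, TWSG1 and NRROS, the 3 genes the naming rule took from this list, were lower there. TWSG1, a modulator of BMP binding, fell in both clones (-0.38 in KO1 and -0.56 in KO2; adjusted p by limma = 0.0013 and 9.76e-05). Of its 10 neighbours on chromosome 18, 8 were lower in each clone, with medians of -0.45 in KO1 and -0.48 in KO2. NRROS, which anchors latent TGF-beta 1, fell by 2.63 in KO1 (limma adjusted p = 0.00017), with 13 reads in KO1 and 58 in KO2, against 82 in control. CHRDL1, a BMP antagonist, had 0 reads in KO1 and 370 in KO2, against 8 in control. By reads it was 49.8-fold higher in KO2 than in control (95% counting interval 25.02 to 116). With 3 reads over the line taken as the floor in KO1, it was 2.67-fold lower there. This value takes the 8 control reads as exact, so a smaller fall is not excluded.

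Of 14 intracellular inhibitors, 5 were higher and 4 lower in KO1, and 1 was higher and 4 lower in KO2. Those called were 64.3% in KO1 and 35.7% in KO2, beside 34.3% and 30.4% of all tested genes. The higher count in KO1 was 3 without KO1 replicate A or C or without control replicate B or C, and that in KO2 was 0 without KO2 replicate A. TGIF1, a corepressor of SMAD2 and SMAD3, was at 17.98 ± 0.377 TPM in KO1 and 17.1 ± 0.935 TPM in KO2, against 29.9 ± 1.80 TPM in control (SD, n = 3 each). Its log2 fold change was -0.73 in KO1 and -0.81 in KO2 (adjusted p by limma = 4.16e-05 and 1.69e-05). Of its 10 neighbours on chromosome 18, 9 were lower in KO1 and 8 in KO2, with medians of -0.58 and -0.64. FKBP1A, which holds type I receptors inactive, fell in both (-0.42 in KO1 and -0.56 in KO2; adjusted p by limma = 0.000435 and 6.1e-05), and 7 of its 10 neighbours on chromosome 20 were lower in each clone, with medians of -0.68 and -0.64. SMURF1, a ubiquitin ligase that targets BMP SMADs, fell in both (-0.30 in KO1 and -0.36 in KO2; adjusted p by limma = 0.00336 and 0.00109), among neighbours with medians of 0.04 and 0.02. TGIF2, a relative of TGIF1, was called higher by 0.22 in KO1 and 0.26 in KO2 (adjusted p by limma = 0.0299 and 0.016). The KO1 call of TGIF2 ended without KO1 replicate A (limma adjusted p = 0.0663) or C (0.116), or without control replicate A (0.0653), B (0.0680) or C (0.0791). It also ended under median centring (limma adjusted p = 0.0629), quantile normalization (0.0512), the replicate block (0.0512) and limma-voom (0.0932). The KO2 call of TGIF2 ended without KO2 replicate A (limma adjusted p = 0.0626).

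Of 15 TGF-beta target genes besides SMAD7, 5 were higher and 4 lower in KO1, and 2 were higher and 5 lower in KO2. TGIF1, described above, was among those lower in each clone. Called genes were 60% of the list in KO1 and 46.7% in KO2, beside 34.3% and 30.4% of all tested genes. Without control replicate C, 3 were higher in KO1. TGFBI, a secreted matrix protein named for its induction by TGF-beta, was at 11.2, 11.3 and 10.8 TPM in KO1 and at 11.2, 13.1 and 9.96 TPM in KO2, against 45.7, 48.1 and 44.5 TPM in control. All knockout libraries lay far below the control libraries, and the clones overlapped. Its log2 fold change was -2.06 in KO1 and -2.02 in KO2 (SE 0.0942 each; adjusted p by limma = 2.82e-07 and 3.6e-07). KLF10, an immediate TGF-beta response gene, rose by 0.36 in KO1 and 0.30 in KO2 (adjusted p by limma = 0.00151 and 0.00459). CDKN1A, the cell cycle inhibitor p21, rose by 0.24 in KO1 (limma adjusted p = 0.00148) and fell by 0.70 in KO2 (limma adjusted p = 1.49e-06). CDKN1A is also induced by p53.

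Of 8 BMP target genes besides SMAD7, ID1 and ID3, 2 were higher in KO1 and none lower, and none was higher and 2 were lower in KO2. That is 25% in each clone, beside 34.3% of all tested genes in KO1 and 30.4% in KO2. Without KO1 replicate A or without KO2 replicate B, 1 was lower in KO1. The 2 higher in KO1 were SMAD6, given above, and GATA3, named after its values were seen. GATA3 rose by 1.06 on the log2 scale in KO1 (limma adjusted p = 0.012) and stood at -0.39 in KO2 (limma adjusted p = 0.296). It had 127 reads in KO1 and 44 in KO2, against 64 in control. MSX2, a homeobox gene, fell by 1.64 in KO2 on the log2 scale, and its log2 fold change was -0.33 in KO1 (limma adjusted p = 0.00614 in KO2 and 0.509 in KO1). BAMBI, a decoy receptor, was called lower in KO2 by 1.80 (limma adjusted p = 0.0337) on 18 reads in KO1 and 9 in KO2, against 32 in control. The BAMBI call ended in 5 of the 9 fits that left out 1 library, those without KO2 replicate A (limma adjusted p = 0.0621) or C (0.0777) and without control replicate A (0.10), B (0.0802) or C (0.0586). Of 6 tested helix-loop-helix partners and relatives that ID proteins act on or beside, 1 was lower in each clone. This share of 16.7% stood beside 34.3% of all tested genes called in KO1 and 30.4% in KO2. In KO1, 2 were lower without KO1 replicate A, and 1 was higher without control replicate A. LYL1 was called lower in KO1 by 1.55 (limma adjusted p = 0.0219), which ended without control replicate A (0.0532) or B (0.0651). TWIST2 was called lower in KO2 by 0.47 (limma adjusted p = 0.015), which ended without KO2 replicate C (0.0509) or control replicate C (0.0589). Of the 10 neighbours of TWIST2 on chromosome 2, 7 were higher in each clone, with medians of 0.55. The E protein genes TCF3, TCF4 and TCF12, whose products the ID proteins bind, did not pass the test; TCF3 was at -0.21 in KO1 and -0.10 in KO2 on the log2 scale, TCF4 at 0.21 and 0.17, and TCF12 at 0.12 and -0.03.

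BMP2, BMP6, BMPR1B, TGFBR3, NRROS, BAMBI, MSX2 and LYL1 had at most 168 reads over the 3 libraries of any line. GDF15, CHRDL1 and CDKN1A were named after their values were seen, as the 3 genes called in opposite directions. The KO1 call of CHRDL1 depended on the prior. It ended with log2(TPM + 1) (-0.31, limma adjusted p = 0.0807) and with log2(TPM + 5) (-0.07, limma adjusted p = 0.308).

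**Figure D3:**
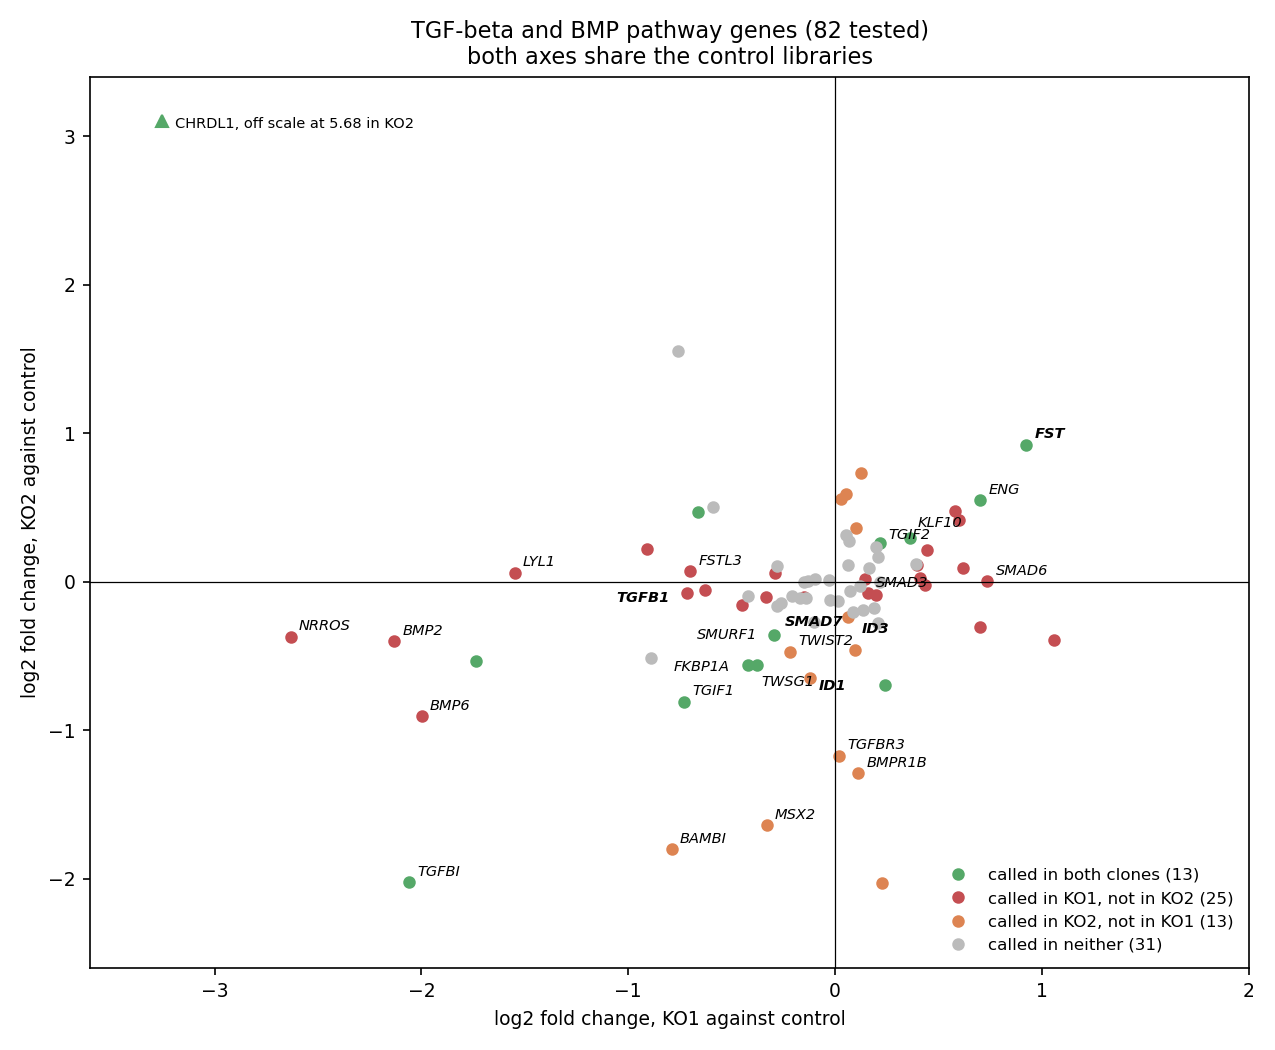
Log2 fold change in KO2 against control (vertical) and in KO1 against control (horizontal) for 82 tested pathway genes, the 5 genes of interest in bold; colours mark in which clone a gene passed limma's test (13 in both, 25 in KO1 and not KO2, 13 in KO2 and not KO1, 31 in neither). FST lies at 0.92 on both axes and TGFBI near -2 on both. Both axes share the control libraries. CHRDL1 is drawn off scale because its log2 fold change of 5.68 in KO2 exceeds the vertical axis, and its KO1 value rests on 0 reads in KO1.

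The chromosome regions of the 5 genes were read from the 5 tested genes on each side. Over all tested genes, 20.2% were called higher and 14.1% lower in KO1, and 15.6% higher and 14.8% lower in KO2. Around FST, 2 of 10 neighbours were higher and 1 lower in KO1, and 1 was higher and 4 lower in KO2, with medians of 0.08 and -0.09. The highest neighbour of FST reached 0.75 in KO1 and 0.35 in KO2, below FST itself. MOCS2-DT and NDUFS4, directly beside FST, were not called in either clone. Around TGFB1, 3 of 10 were higher and 2 lower in KO1, with a median of 0.04. Around ID1, 1 of 10 was higher and 0 were lower in KO2, with a median of 0.04 and no value below -0.07, and its direct neighbours MCTS2 and BCL2L1 were not called. Around ID3, 4 were higher and 2 lower in KO2; the ribosomal protein gene RPL11 beside it rose by 0.13 in KO1 and 0.15 in KO2 (adjusted p by limma = 0.0104 and 0.00551), and E2F2 was not called. Around SMAD7, 0 were called in KO1, and 5 were higher and 1 lower in KO2, the highest by 4.97; of its direct neighbours, CTIF rose by 0.21 in KO2 (limma adjusted p = 0.012) and DYM was not called.

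**Figure D4:**
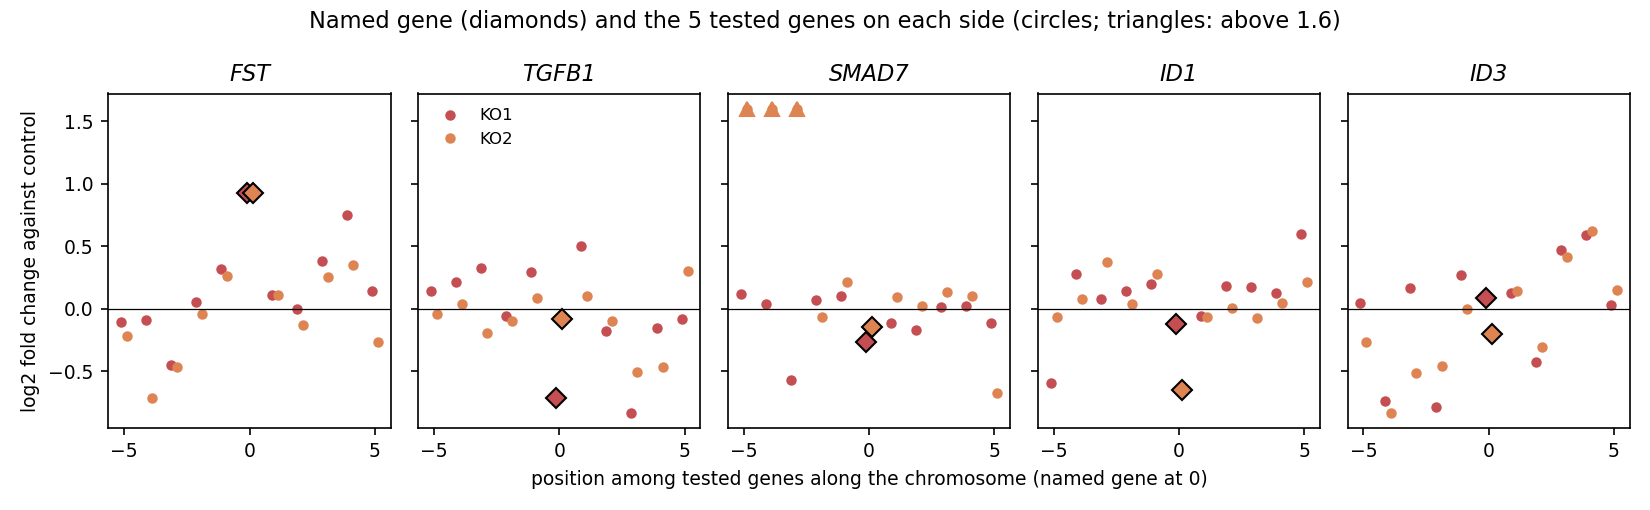
Log2 fold change against control of FST, TGFB1, SMAD7, ID1 and ID3 (diamonds) and of the 5 tested genes on each side (circles), for KO1 and KO2, by order along the chromosome; triangles are values above 1.6. FST stands above all of its neighbours in both clones, and ID1 stands below all of its neighbours in KO2.

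For the 3 genes called with a log2 fold change of at least 0.5 in size, the genes with the most similar profile were sought among the 9677 genes that averaged 10 TPM or more, as the smallest root mean square difference of centred log2 TPM over the 9 libraries. FST was most like SEMA3C, a secreted semaphorin, with a difference of 0.0497. SEMA3C was at 51.9 TPM in KO1 and 51.3 TPM in KO2, against 28.9 TPM in control. SNHG14, the tumour antigen gene PRAME, ENSG00000261786 and ARMC9 followed, at differences up to 0.0780. They lie on chromosomes 15, 22, 3 and 2, and SEMA3C on chromosome 7, none on that of FST.

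TGFB1 was most like SBNO2 (0.107), followed by POLRMT, SLC29A2, FSTL3 and MINK1 (up to 0.153). FSTL3, the activin antagonist described above, was thus the fourth nearest. SBNO2, POLRMT and FSTL3 lie on chromosome 19, as TGFB1 does, SLC29A2 on chromosome 11 and MINK1 on chromosome 17. All 5 were lower in KO1 by log2 fold changes of -0.93 to -0.47. Their transcripts had 60.9% to 66.6% GC, as TGFB1 had 63.6%. The parts of GC content and of chromosome in this likeness were not tested. ID1 was most like ENSG00000268465 (0.115), followed by SPRED3, the pentraxin gene PTX3, TINAGL1 and LINC02381 (up to 0.126). Their log2 fold changes in KO2 lay between -0.65 and -0.47. ENSG00000268465 and SPRED3 lie on chromosome 19, PTX3 on chromosome 3, TINAGL1 on chromosome 1 and LINC02381 on chromosome 12, none on that of ID1.

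**Figure D5:**
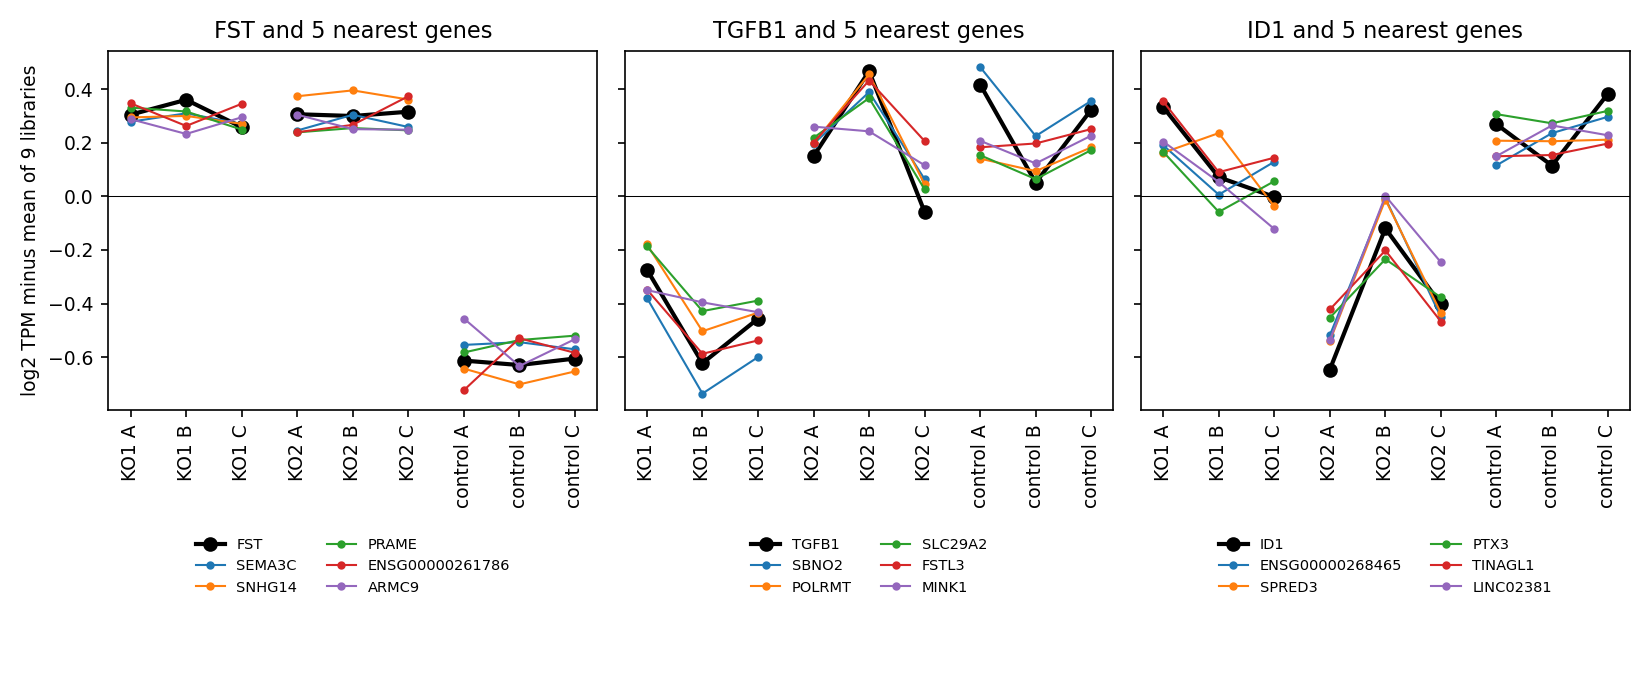
Log2 TPM minus the mean over 9 libraries for FST, TGFB1 and ID1 (black) and the 5 genes nearest to each (colours), by library; lines join libraries of 1 line only to guide the eye. FST and its nearest genes form 2 flat levels, clones above control, whereas TGFB1 is low in KO1 and ID1 is low in KO2.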

How the data were processed

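Per the submitters' processing notes, the tools were HISAT2 2.0.4, featureCounts, edgeR 3.12.1 in R 3.3.3, SAMtools 1.7 and deepTools 3.0.2, on hg38. What each tool did, the annotation, the strand setting and the filter on genes were not given in the sources used here. As deposited by the authors, the table held log2 TPM of 15258 genes in 9 input libraries; TPM was scaled over the listed genes, and a small prior kept genes without reads above 0. Fold changes are on this log2 scale, where those of genes near the prior depend on it. Per the labels' protocols, total RNA was taken with Trizol, mRNA was purified on beads and libraries were directional.

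Lines and replicates came from the sample titles. The deposited values were tested with limma-trend (limma 3.58.1, R 4.3.3), 1 mean per line over 9 libraries, 6 residual degrees of freedom, two-sided, with p-values adjusted by Benjamini-Hochberg over the 14512 genes whose mean reached 1 TPM; a gene was called at an adjusted p under 0.05. Exact two-sided permutation tests were added for single genes. Whole reads were recovered from the steps of the deposited values for 100% of genes (tolerance 1e-06 reads), 84602764 in all. Counting intervals cover counting error only. The floor of 3 reads covers that of the line without reads, and not that of the line it is compared with. Replicate pairs differed beyond sampling noise (chi-square over its degrees of freedom 1.22 to 3.71), so each library counted as 1 sample.

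GENCODE 44 on hg38 gave symbols and coordinates for 15138 of the 15258 identifiers. Start windows and promoters came from RefSeq (GRCh38.p14), where all 5 genes matched. The members and the pathway lists were chosen with earlier results of these data known. The naming rule took, from each list, up to 4 genes called in both clones in 1 direction, and where fewer than 2 were, the 2 largest called in 1 clone; values of 1 gene that it took are not reported here. Alternatives were log2(TPM + 1), log2(TPM + 5), a filter at 5 TPM or none, quantile normalization, median centring, a fit without the variance trend, a fit on the compared lines alone, a replicate block, limma-voom on recovered reads, each library left out, and, chosen after seeing the data, a GC and length trend subtracted. The fit was tested on simulated data.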

Additional observations from a re-analysis of the deposited data

Results flagged for a closer look

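The effect against control differed between the clones, by the limma test of KO2 minus KO1, for 15 genes. They came from the 5 genes of interest, those the naming rule took from the lists and the 3 called in opposite directions. Both effects share the control libraries. Over all tested genes, 28.7% differed between the clones by this test. Many genes were taken by the naming rule because they were called in 1 clone, and the last 3 because their calls were opposite. Such a choice favours a difference between the clones, so the count of 15 does not measure how often pathway genes differed. Of the 5 genes of interest, those that differed were TGFB1, with a log2 difference of 0.64 (limma adjusted p = 0.00892), and ID1, with -0.52 (limma adjusted p = 0.0146). Among ligands the difference was 1.73 for BMP2 and 1.13 for GDF15. Among receptors it was -1.40 for BMPR1B and -1.19 for TGFBR3. For the SMAD genes it was -0.73 for SMAD6 and -0.23 for SMAD3. Among extracellular antagonists it was 0.77 for FSTL3, 2.26 for NRROS, -0.19 for TWSG1 (limma adjusted p = 0.0474, lost under 12 alternatives) and 8.93 for CHRDL1, whose fitted value depends on the prior because KO1 had 0 reads. By reads CHRDL1 was 133-fold higher in KO2 than in KO1, with the floor of 3 reads in KO1 and the 370 reads in KO2 taken as exact. Among targets and partners it was -0.94 for CDKN1A, -1.31 for MSX2 and 1.61 for LYL1. The MSX2 difference lost its call without KO1 replicate B or C (limma adjusted p = 0.0557 and 0.0632), and that of LYL1 without KO2 replicate A or B (0.0548 and 0.0585).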

How the results depend on the processing

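No log2 fold change of the 5 genes that passed the test against control in a single clone lost its call or its direction under any alternative or with any library left out. Over the alternatives on all 9 libraries FST lay between 0.87 and 0.92 in KO1 and between 0.89 and 0.94 in KO2, TGFB1 in KO1 between -0.79 and -0.57, and ID1 in KO2 between -0.68 and -0.58. With 1 library left out, KO2 minus KO1 ranged from -0.66 to -0.40 for ID1, which lost its call without KO1 replicate A (-0.42, limma adjusted p = 0.0507), and from -0.36 to -0.20 for ID3, which gained one without KO1 replicate B (-0.36) or control replicate A (-0.29). In the mean of both clones, TGFB1 and ID1 lost their calls with the replicate block (limma adjusted p = 0.0516 and 0.0535) and without a variance trend (0.0591 and 0.0533); the cause was not tested. SMAD7 has no value with a mean of at least 5 TPM, and a fit of only the lines compared gives none for both clones together.

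No shared effect of the replicate letters was seen: deviations of same-letter libraries correlated at -0.0736 to 0.0371, and those of other letters at -0.109 to 0.123. Such correlations do not show whether libraries of the same letter were prepared together. The replicate block gave 2574 higher and 1801 lower genes in KO1, against 2928 and 2047 without it. Counts over all tested genes stayed within 1.5 times under every alternative. The share of called genes that were higher depended on scaling: in KO1 it was 58.9% as deposited, 49.7% after median centring, 52.0% after quantile normalization and 47.1% by limma-voom, and between KO2 and KO1 it was 41.1% as deposited and 55.5% after median centring, while the median of all genes moved by less than 0.1. Counts of single lists, many of them below 5, moved by more than 1.5 times in 97 of 1080 values, and other named genes lost a call in 50 and gained one in 10 of 1353. SMAD7 rests on 27 to 54 reads per library and TGFB1 on 131 to 302, which limits their precision.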
